A study of Sus scrofa with 80 samples.

Results

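Voltage-gated ion channel genes were taken by name from a custom minipig expression array: every gene whose name begins with KCN, with SCN and a digit, with CACNA, CACNB or CACNG, with HCN and a digit, or with CLCN. This rule took 120 of the 23722 genes measured, and 270 probes read them. The rule is wider than the label, because it also takes the inwardly rectifying (KCNJ) and tandem-pore (KCNK) potassium channels, which voltage does not open, the auxiliary subunits, and chloride channels and chloride-proton exchangers (CLCN). The members were 31 Kv alpha subunits, 15 inward rectifiers, 13 tandem-pore channels, 13 auxiliary subunits of potassium channels, 7 calcium- or sodium-activated potassium channels, 6 sodium channel alpha and 4 sodium channel beta subunits, 8 calcium channel alpha-1, 3 alpha-2-delta, 3 beta and 7 gamma subunits, 2 HCN channels and 8 chloride genes. Another 15 entries of the array that map to symbols of the rule carry only a sequence accession as their name and were not taken. KCNA2 and SCN8A, which encode channels of the axon, were measured only in that way and are not described.

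Ion channels let ions cross a membrane down their gradients, and the voltage-gated ones open when the membrane potential changes. In neurons, sodium channels start the action potential, Kv channels end it, calcium channels couple it to transmitter release, and HCN channels set the pace of rhythmic firing. In kidney tubules, potassium and chloride channels recycle potassium and return chloride to the blood, so that salt can be reabsorbed.

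The study profiled tissues of naïve Göttingen minipigs, a small laboratory breed, by labelling total RNA with a single dye. Cortex, cerebellum, hypothalamus, kidney, liver, spleen and bone marrow were each sampled at 1 week, 4 weeks, 2 months and 4 months from 1 female and 1 male per age, testis from 1 male per age and ovary from 1 female per age. A 2-year-old male gave every tissue except ovary, but per the labels it was raised for most of its life at another site on another feed and its arrays were hybridised on slides of their own, so its values are given apart and enter no main test. The labels do not tie samples to animals, tissues of the same age and sex may come from the same pig, and the tissues are bulk samples that hold many cell types. The p-values therefore measure the spread between these samples.

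The 80 arrays lay on 11 slides, and the median gene spot intensity of an array ran from 27 to 89. Over 8 repeat arrays of the 2-year kidney, the SD of a member's log2 intensity had a median of 0.152. Tissue labels were checked by the mean log2 intensity of defining markers. 3 of the 5 neuron markers listed were measured, and their mean stood at 7.05 to 8.13 in the 24 brain samples against 2.18 to 4.04 elsewhere, while proximal tubule markers stood at 10.55 to 11.31 in kidney and at 4.21 or lower in the other tissues. Of the neuron markers, STMN2 was not well above background in any brain sample, with region means of 3.3 to 3.39, so SYT1 and NEFL carried the gap. Hepatocyte markers were highest in liver (7.63 to 8.64), and erythroid markers had their highest median in bone marrow (9.10 to 9.75), with spleen at 8.2 to 9.38. Spermatid markers stood at 12.88 to 13.18 in testis at 2 and 4 months, but also reached 6.85 in a cortex sample and 6.56 in a kidney sample, against medians of 4.21 and 4.52 in those tissues.

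Not every channel gene gave a signal. Of the 120 members, 32 were well above background in over 50% of the samples of all 9 tissues, 57 in 2 to 8 tissues, 6 in 1 tissue and 25 in no tissue. 10 members were never well above background on any of the 64 younger arrays, among them KCNU1, a sperm potassium channel, and CLCN2, a chloride channel. No member was saturated. The tissue with the highest mean was the cerebellum for 27 members, the cortex for 26, bone marrow for 16, the hypothalamus for 14, kidney for 13, spleen for 9, liver for 8, testis for 4 and ovary for 3. A lead of at least 2-fold over the next tissue was held by 10 of the 26 cortex members and 7 of the 13 kidney members, but by 4 in cerebellum, 2 in bone marrow, 1 each in hypothalamus, testis and ovary, and none in liver or spleen. All levels are log2 intensities of a gene's probes, which do not share a scale between genes, so every comparison is of the same gene between samples.

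Brain was first compared with non-brain tissues. A gene was called where its Benjamini-Hochberg adjusted p was under 0.05 and the groups differed at least 2-fold. 48 members were called higher and 11 lower in the 24 samples of the 3 brain regions than in the 32 samples of kidney, liver, spleen and bone marrow. Over all 23722 genes tested, 13.3% were called higher and 13.5% lower. The members' median log2 difference was 0.44, against -0.11 for all genes. In bulk tissue, more cells of a type and more RNA per cell cannot be told apart, and the neuron markers moved with this contrast. Their part in it was not tested.

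**Figure D1:**
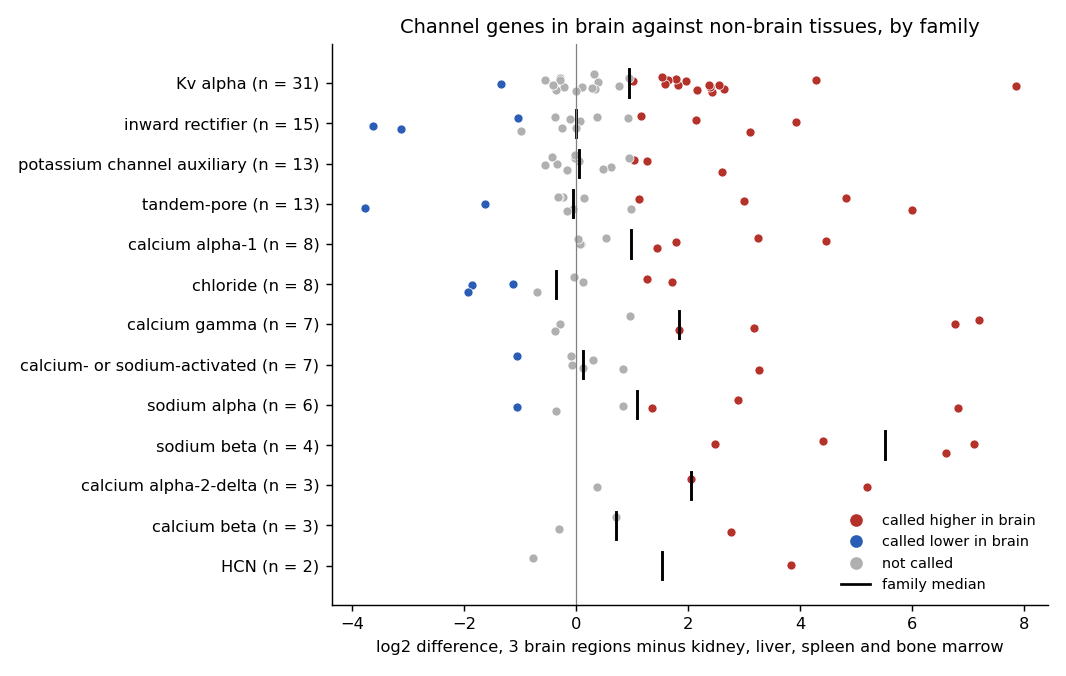
Log2 difference in mean intensity of each of the 120 channel genes between the 3 brain regions (24 samples) and kidney, liver, spleen and bone marrow (32 samples), by channel family on the vertical axis; each point is a gene, and a black bar marks the family median. The sodium channel beta subunits have a median of 5.51, whereas the inward rectifiers (median 0.01) and chloride genes (median -0.36) spread to both sides.

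The Kv alpha subunits, which form the pores of voltage-gated potassium channels, gave 15 of 31 higher and 1 lower. KCNA1, a fast axonal channel, had the widest gap of all members. Its log2 intensity ran from 9.45 through a median of 9.94 to 11.19 in brain and from 1.39 through 2.22 to 2.73 outside it, so the groups did not overlap. It was well above background in 24 of 24 brain samples and in 0 of 32 others, a difference of at least 128-fold (log2 difference 7.85 ± 0.09 SE, adjusted p = 1.64e-55). KCNA1 was also well above background in all 4 testis samples, at 5.88 to 8.33, and in 1 of 4 ovary samples. KCNC1, whose channel lets neurons fire fast, ran from 5.80 through 7.33 to 8.77 in brain and from 2.61 through 3.09 to 4.33 elsewhere, 19.4-fold higher (adjusted p = 5.87e-41).

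Among the sodium channel genes, 3 of the 6 alpha subunits were called higher, as were the beta subunits SCN2B, SCN3B and SCN4B. SCN2A, a pore subunit of excitatory neurons, ran from 7.85 through 9.52 to 10.22 in brain and from 1.82 through 2.43 to 5.69 outside it (113-fold, adjusted p = 3.65e-45). The 5.69 came from the liver of the 4-month male, the only sample of the 32 in which SCN2A was well above background. The beta subunits, which anchor the pore and tune its gating, were also far apart. SCN2B stood at 11.83 to 13.42 in brain and 3.89 to 7.44 elsewhere (138-fold), and SCN3B at 10.69 to 12.56 and 4.10 to 6.33 (97.5-fold). SCN4B was 21.3-fold higher, with ranges that overlapped (7.43 to 11.32 and 2.98 to 8.69). In ovary, which was not in this contrast, the probes stood at 8.77 and 8.69 for SCN4B and at 8.04 and 9.29 for SCN2B. SCN4A, the sodium channel of skeletal muscle, was the exception and was called lower in brain, at 8.34 against 9.38.

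Calcium channel subunits were called in 1 direction. Of the 8 alpha-1 subunits 4 were higher, with 2 of 3 alpha-2-delta, 1 of 3 beta and 4 of 7 gamma subunits, and none was lower. CACNG2 (stargazin) and CACNG7 are gamma subunits that also traffic glutamate receptors. CACNG2 ran from 8.23 through 9.27 to 9.63 in brain and was not well above background in any of the 32 other samples (at least 66-fold, adjusted p = 9.40e-58). CACNG7 stood at 10.36 to 11.27 in brain and at 2.82 to 4.75 elsewhere, 146-fold higher. CACNA1E, the R-type pore, was 22.0-fold higher, and CACNA1G, a low-voltage T-type pore, 9.53-fold, and neither overlapped between the groups. Ovary was not in this contrast, and there the specific CACNA1G probes stood at 9.53 and 9.55, near their cortex means of 9.65 and 9.64.

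The tandem-pore, inward rectifier and chloride families went both ways. KCNK12 was 63.7-fold higher in brain, at 9.5 to 11.98 against 2.78 to 7.72. Its probes stood at 8.44 and 8.3 in ovary, which was not in this contrast. KCNJ3, a G-protein-gated rectifier, was at least 8.94-fold higher and was not well above background in any of the 32 other samples. Among the 11 members called lower in brain were KCNK5, KCNJ15, KCNJ1, KCNK17, KCNQ1, CLCN5, KCNN4, SCN4A and KCNJ8, and for each of the 11 the groups overlapped. KCNK5, an acid-sensitive channel of epithelia, was the farthest apart, at 4.48 ± 1.23 (SD, n = 24) in brain and 8.25 ± 1.65 (SD, n = 32) elsewhere. HCN4 was called higher in brain (14.4-fold), but its probe means in ovary, 6.39 and 6.34, lay among those of the brain regions (5.55 to 7.57). HCN2, also a pacemaker gene of neurons, was not called, with its highest mean in bone marrow at 9.09 and 7.44 to 7.91 in the brain regions. Both HCN2 probes are of the kind the array's names mark as cross-hybridising, as are all probes of 16 of the 120 members, and whether they read other transcripts was not tested.

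Of 27 genes listed for anchoring, binding or powering channels, 19 were measured, and 10 were called higher in brain and none lower. LGI1, a secreted partner of Kv1 channels, differed by 6.23 on the log2 scale, FGF12, which binds sodium channels, by 5.45, and STX1A, a syntaxin of transmitter release, by 5.23.

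The 3 brain regions were then compared with each other, 8 samples against 8. Between cortex and cerebellum, 22 members were called higher in cortex and 9 lower, where all genes gave 5.50% and 4.45%. Between hypothalamus and cortex, 5 were higher in hypothalamus and 15 lower, against 2.15% and 2.49% of all genes. The hypothalamus had 13 members higher and 9 lower than the cerebellum, against 5.76% and 4.26%. These comparisons share their samples.

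Cortex was set apart by Kv alpha subunits that form no channel on their own. KCNG1, which modifies other Kv channels, ran from 9.74 through 10.25 to 11.502 in cortex, from 5.16 through 6.40 to 7.81 in hypothalamus and from 3.49 through 4.31 to 5.49 in cerebellum. Cortex stood above both without overlap, 65.3-fold above cerebellum (adjusted p = 1.73e-13) and 14.7-fold above hypothalamus. KCNV1, another silent subunit, ran from 8.17 through 8.73 to 8.92 in cortex and lay between 3.4 and 4.31 in the 16 samples of the other regions. It was 25.8-fold above cerebellum and 28-fold above hypothalamus, and its next tissue was testis, 4.53 lower on the log2 scale. KCNH4, of the ELK group, was 6.49-fold and 5.40-fold above cerebellum and hypothalamus. KCNJ4, an inward rectifier of forebrain neurons, was well above background in 7 of 8 cortex samples and in none of the 16 others, at least 2.94-fold and 3.73-fold higher.

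**Figure D2:**
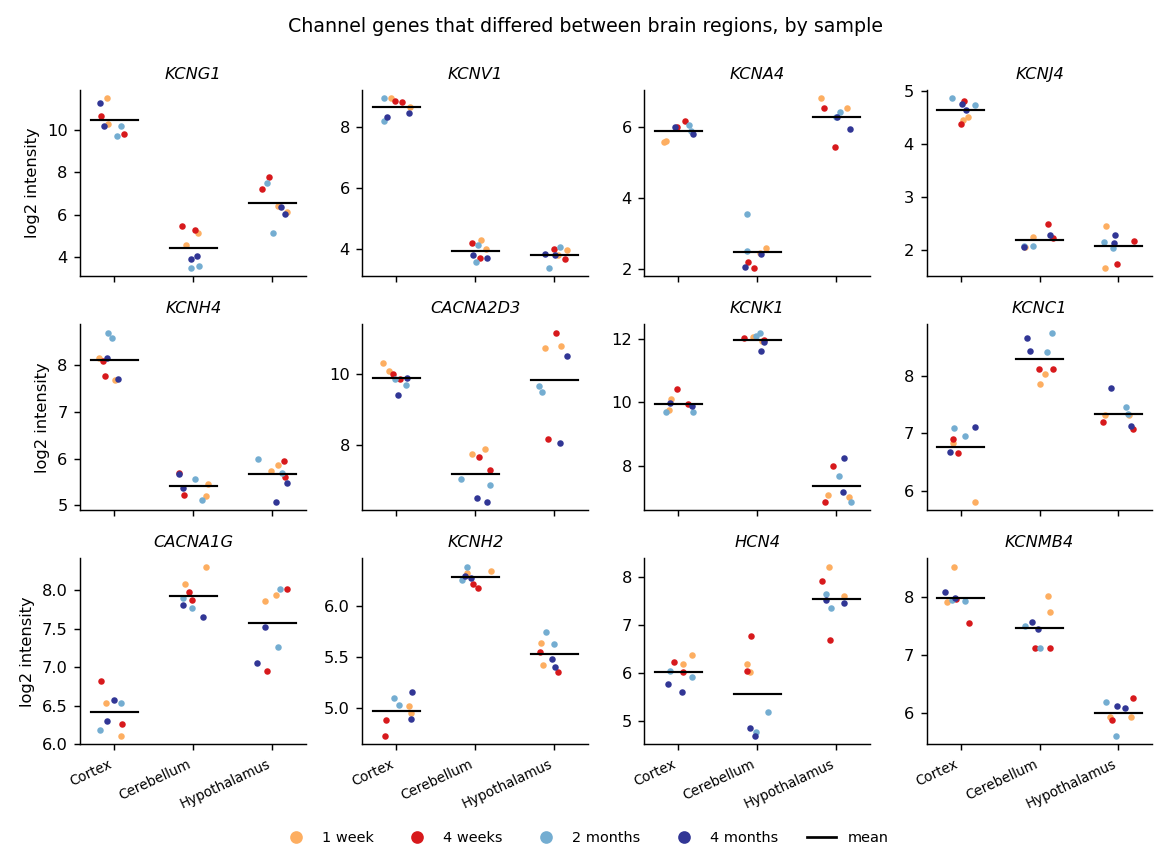
Log2 intensity of 12 channel genes in cortex, cerebellum and hypothalamus, each point a sample colored by age and each bar the mean of 8 samples. KCNG1, KCNV1 and KCNH4 stand apart in cortex, KCNK1 falls in steps from cerebellum (11.62 to 12.20) over cortex (9.68 to 10.41) to hypothalamus (6.86 to 8.25), and KCNA4 is near background in the cerebellum.

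In the cerebellum a different set stood above cortex. KCNK1, a tandem-pore channel, ran from 11.62 through 11.99 to 12.20 there, against 9.68 through 9.91 to 10.41 in cortex and 6.86 through 7.12 to 8.25 in hypothalamus. The 3 ranges did not overlap, and the cerebellum stood 4.10-fold above cortex and 24.4-fold above hypothalamus (adjusted p = 1.13e-10 and 1.65e-17). KCNC1 ran from 7.87 through 8.27 to 8.77 in cerebellum and from 5.80 through 6.88 to 7.12 in cortex (2.94-fold). CACNA1G was 2.84-fold higher in cerebellum than in cortex, KCNH8 2.88-fold, KCNK10 2.67-fold and KCNH2, the hERG potassium channel, 2.48-fold, each without overlap. KCNC1, CACNA1G and KCNH2 were not called between cerebellum and hypothalamus. The specific CACNA1G probes stood at 11.77 and 11.79 in cerebellum and at 11.29 and 11.31 in hypothalamus. KCNH2 was among the tightest, at 6.17 to 6.38 in cerebellum, 5.35 to 5.74 in hypothalamus and 4.73 to 5.16 in cortex. These are means of 6 probes that differ, 4 of them marked as cross-hybridising. Their own means ran from 2.43 to 8.67, and the lowest correlation between them was -0.18. The auxiliary subunit KCNAB3 was well above background in 6 of 8 cerebellum samples and in none of the other brain samples, at least 2.70-fold above cortex and 2.84-fold above hypothalamus.

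KCNA4, an A-type Kv channel measured by cross-hybridising probes only, was not well above background in any cerebellum sample, and stood at 5.56 to 6.16 in cortex and 5.42 to 6.79 in hypothalamus, at least 6.52-fold and 8.51-fold higher. CACNA2D3, an alpha-2-delta subunit, also stood lower in cerebellum, 6.53-fold below cortex and 6.25-fold below hypothalamus. The calcium-activated channel KCNN4 was not well above background in cerebellum either and was at least 5.13-fold higher in hypothalamus. SCN7A, a sodium-sensing relative of the sodium channels, was at least 3.95-fold higher there.

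Of the 3 regions, HCN4 had its highest mean in the hypothalamus. It ran from 6.69 through 7.56 to 8.21 there and from 5.6 through 6.03 to 6.38 in cortex, 2.89-fold higher without overlap (adjusted p = 2.95e-05). In cerebellum it spread from 4.69 to 6.77, which overlapped with the hypothalamus, although it was called 3.94-fold lower. CACNA1G was 2.24-fold above cortex. SCN2A was 2.35-fold and CACNA1B, the N-type calcium pore (cross-hybridising probes only), 2.48-fold lower in hypothalamus than in cerebellum, and the rectifier KCNJ6 2.63-fold lower. KCNMB4, the neuronal beta subunit of the large-conductance potassium channel, stood at 5.61 to 6.27 in hypothalamus, below cortex (7.55 to 8.53) and cerebellum (7.12 to 8.03), by 3.96-fold and 2.75-fold. KCNJ16 was called at least 2.12-fold above cortex, but only 4 cross-hybridising probes gave this, and the other 2 probes gave -0.12 on the log2 scale.

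STX1A followed the cortex among the partner genes, 2.58 above cerebellum and 3.41 above hypothalamus on the log2 scale. Of the 19 partners measured, 3 were called higher in cortex than cerebellum and none lower, 3 lower in hypothalamus than cortex and none higher, and 2 higher in hypothalamus than cerebellum and none lower. 7 slides held both regions of each pair, and 30 of 31, 19 of 20 and 21 of 22 called members kept their direction within every such slide.

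Kidney was compared with liver, spleen and bone marrow, 8 samples against 24. 15 members were called higher and 8 lower, and all genes gave 9.57% and 8.79%. The members' median difference was -0.06 and that of all genes -0.08. KCNJ1 (ROMK), the channel that secretes potassium into the tubule, ran from 11.13 through 11.40 to 12.25 in kidney and was 221-fold higher than in the other 3 organs (adjusted p = 2.95e-47). Its next tissue was bone marrow, at 5.00 to 6.30. Its probes agreed in kidney, with means of 11.89 and 11.12, but in bone marrow the first stood at 2.81 and the second at 8.43, and the fold is of their mean. CLCN5, the endosomal exchanger of the proximal tubule, ran from 10.75 through 10.95 to 11.47 in kidney and from 5.40 through 6.51 to 8.14 elsewhere (21.2-fold). KCNJ15 was 11.9-fold higher, at 8.16 to 9.90 against 3.47 to 7.10, as the mean of probes that differed. The first stood at 9.86 in kidney and 3.47 to 3.62 in the 3 organs, while the second stood at 8.47 in kidney, 9.69 in bone marrow, 7.72 in spleen and 5.58 in liver. KCNQ1, a Kv channel of epithelia and heart, was well above background in 8 of 8 kidney samples and in none of the 24 others (at least 3.37-fold). KCNK5 was 8.21-fold higher, with ranges of 9.49 to 11.12 in kidney and 7.5 to 9.73 in liver that overlapped.

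KCNJ16 was called 9.16-fold higher in kidney, and this came from its probes marked as cross-hybridising. Those 4 stood at 6.97 to 7.49 in kidney, while the 2 specific probes stood at 4.34 and 4.43 there and at 3.57 to 4.10 in liver, spleen and bone marrow. With specific probes only the log2 difference was 0.54, under the 2-fold minimum. KCNJ10, which pairs with KCNJ16 in the distal tubule and also serves astrocytes, was called lower in kidney, at 6.05 to 7.51 against 6.94 to 8.59, and had its highest mean in liver. SCN9A, a sodium channel of pain neurons, was never well above background in these 4 organs.

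**Figure D3:**
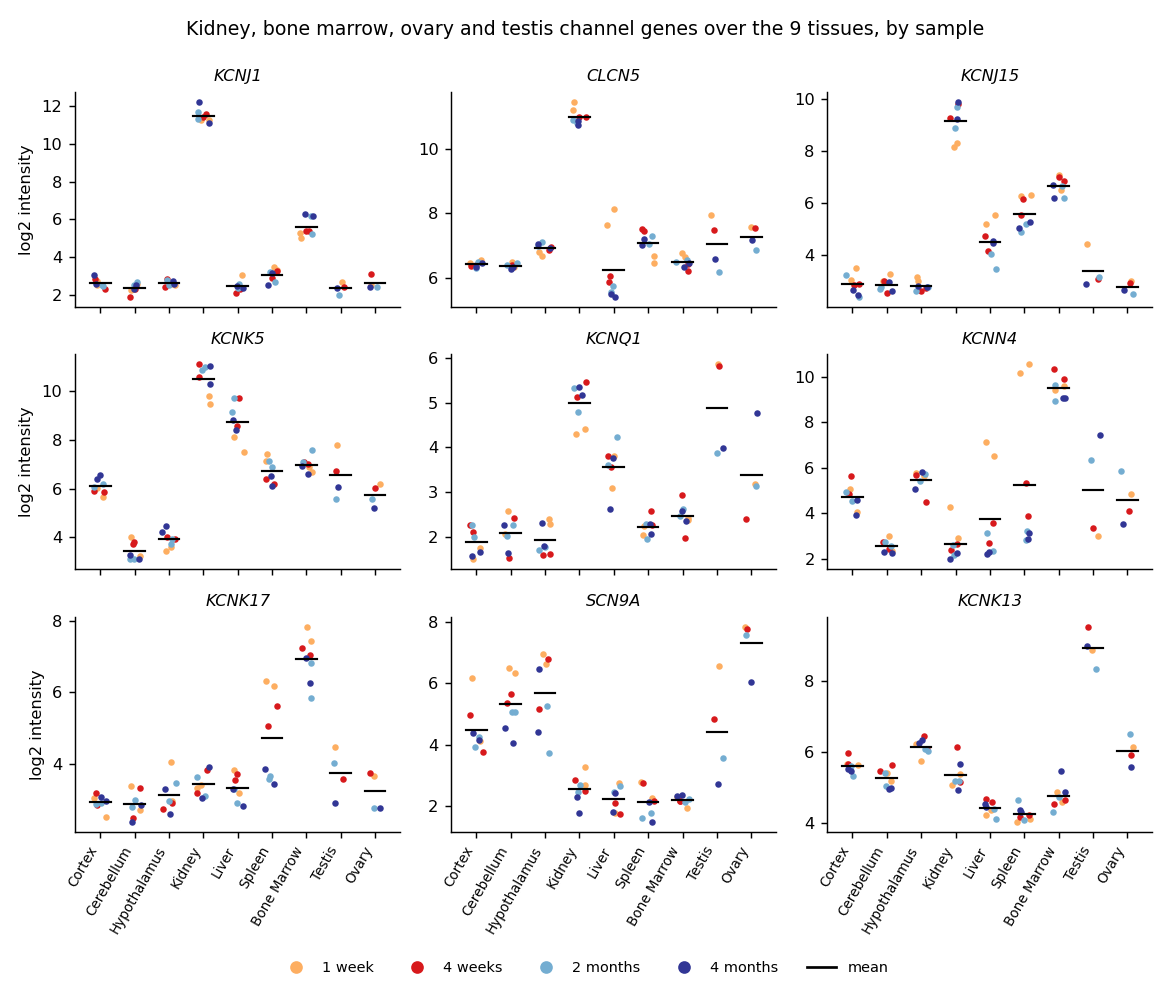
Log2 intensity of 9 channel genes in the 9 tissues, each point a sample colored by age and each bar the tissue mean. KCNJ1 lies above 11 in kidney and at 6.30 or lower elsewhere, KCNN4 lies at 8.96 to 10.33 in bone marrow and as high in the 1-week spleen samples, and SCN9A has its highest mean in ovary.

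Against the 24 brain samples, kidney had 8 members higher and 52 lower, where 12.2% and 12.4% of all genes were called. Among the 8 were KCNJ1 (498-fold), KCNJ15 (78.7-fold), KCNK5 (66.3-fold), CLCN5 (21.6-fold) and KCNQ1 (at least 3.96-fold), none of which overlapped. KCNJ16 was also among them (5.71-fold), but its 2 specific probes stood at 4.43 and 4.34 in kidney and at 3.35 to 4.19 in the brain regions. This contrast shares the kidney samples with the former. At the other end, KCNK12 was at least 173-fold lower in kidney and KCNA1 at least 127-fold. Of the sodium channel beta subunits, SCN3B was 118-fold and SCN2B 99.5-fold lower.

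Of the partner genes, 5 were higher and 1 lower in kidney than in the 3 other organs. ATP1B1, the pump's beta subunit, differed by 4.77 and NEDD4L, which removes sodium channels from the membrane, by 2.90. Kidney shared 8 slides with some or all of the other organs, within each of which 20 of the 23 members called kept their direction. For kidney against brain 56 of 60 did over 8 slides.

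Bone marrow and ovary each led a few members. KCNN4, the calcium-activated channel of blood cells, stood at 8.96 to 10.33 in the 8 bone marrow samples, its mean 4.04 above the next tissue on the log2 scale. KCNK17, an alkaline-activated tandem-pore channel, stood at 5.83 to 7.84 in bone marrow, 2.21 above spleen. SCN9A was highest in ovary, where the 4-month sample stood at 6.04 and the samples from 1 week to 2 months at 7.86, 7.79 and 7.6. These members were chosen for leading in those tissues, so the levels are a description. The 2-year bone marrow stood outside the younger ranges, with 5.47 for KCNN4 and 2.93 for KCNK17.

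Testis at 2 and 4 months was compared with the 28 samples of the other 7 tissues at those ages. 9 members were called higher in its 2 samples and 34 lower, against 16.6% and 22.0% of all genes. The members' median difference was -0.60 and that of all genes -0.31. KCNK13, a tandem-pore channel, stood at 8.34 and 9.00 in testis and from 4.08 through 5.02 to 6.34 elsewhere, 12.0-fold higher without overlap (adjusted p = 2.93e-15). It stood at 8.89 at 1 week, 9.54 at 4 weeks and 8.14 at 2 years. KCNE3, an auxiliary subunit, was 2.19-fold higher without overlap, but of its probes only the first was raised, with a mean of 4.78 over all ages in testis, and the second stood at 2.89 there and at 2.51 to 3.16 in the other 7 tissues. KCNG1, KCNN4 and KCNS2 were called 10-fold, 6.45-fold and 4.86-fold higher, but each overlapped with the range of the 28 samples. KCNG1 in testis (8.60 and 9.01) stayed below every cortex sample and KCNN4 (6.34 and 7.46) below every bone marrow sample, while KCNS2 (5.52 and 5.6) lay within the range of cortex. SCN7A was called 2.25-fold higher with overlap, and KCNQ1 was called although neither testis sample was well above background.

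Sodium channel beta subunits were lower in testis, SCN2B at least 36.0-fold and SCN4B at least 17.3-fold below the mean of the other tissues and without overlap. That mean holds the 3 brain regions, where both are high. Over all ages the SCN4B probes stood at 3.84 and 3.58 in testis and 4.37 and 4.04 in liver. The SCN2B probes stood at 4.04 and 5.15 in testis and 3.73 and 5 in liver. KCNA3 was 6.89-fold, CACNB3 3.6-fold and CLCN3 3.35-fold lower. KCNA3, a Kv channel of lymphocytes and neurons, has probes that differ: the brighter stayed between 13.31 and 14.34 in all tissue means, and the other stood at 3.20 in testis and 9.10 in spleen. For CACNB3, 4 of the 6 probes are marked as cross-hybridising. Its specific probes were closer, at 6.94 and 9.13 in testis over all ages against 7.38 to 9.65 and 9.58 to 10.22 in the other 7 tissues. Of the partner genes, 7 were lower in testis and none higher, with NEDD4L lower by 3.87 and ATP1B1 by 3.4 on the log2 scale. Only 2 slides held testis and other tissues at these ages. The 2-month testis shared its slide with spleen, cerebellum and bone marrow, and the 4-month testis with liver and bone marrow. Against these tissues, and not all 7, 33 of the 43 called members kept their direction in each slide.

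Within testis, 2 and 4 months were compared with 1 and 4 weeks, with 2 samples on each side. 9 members were called higher and 17 lower at the later ages, and of all genes 12.9% and 18.2%. Their median difference was -0.26 against -0.20 for all genes. Spermatid markers moved with this contrast, from 3.96 and 4.00 to 12.88 and 13.18, while Sertoli and Leydig cell markers went from 10.14 and 10.24 to 9.23 and 9.47, smooth muscle markers from 9.25 and 9.86 to 7.79 and 8.01, and the median array intensity from 62 to 64 up to 70.5 to 89. Among the Sertoli and Leydig markers, INSL3 stayed at 15.91 to 15.99 over these testis samples, while SOX9 ranged from 7.45 to 9.88. CYP17A1 did not set testis apart, with a mean of 4.62 against 5.37 in kidney. The part of these shifts in the result was not tested.

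KCNN4 rose most. Its log2 intensity was 2.99 at 1 week and 3.37 at 4 weeks, 6.34 at 2 months and 7.46 at 4 months, at least 13.2-fold higher (adjusted p = 0.00437). The 2-year testis stood at 6.18. KCNG1 rose from 6.16 and 6.56 to 8.60 and 9.01 (5.45-fold, adjusted p = 0.00412). KCNS2, also a silent subunit, was at least 4.62-fold higher, going from 2.89 and 3.81, not well above background, to 5.52 and 5.6. KCNH5, read by cross-hybridising probes only, came up from below background to 3.54 and 3.48, at least 1.57-fold. KCNK10, a tandem-pore channel, was at least 2.01-fold and HCN4 2.06-fold higher. Among the members called lower, KCNE1L (KCNE5), an auxiliary subunit, stepped down through the ages from 9.92 over 6.35 and 3.96 to 3.55 (20.8-fold, adjusted p = 0.0339).

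**Figure D4:**
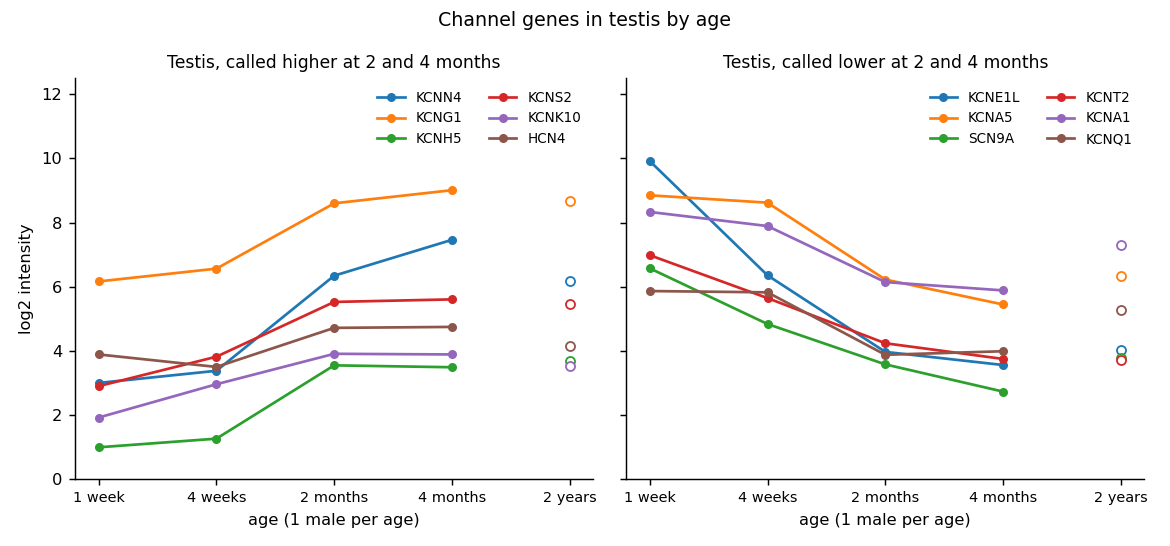
Log2 intensity in testis by age, 1 male per age, of 6 members called higher and 6 called lower at 2 and 4 months; open circles are the 2-year male, which entered no test. Levels are not comparable between genes, and between the 4-week and 2-month samples KCNN4 goes from 3.37 to 6.34 and KCNA5 from 8.62 to 6.22.

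KCNA5, a fast-activating Kv channel of muscle and heart, fell from 8.85 and 8.62 to 6.22 and 5.44 (7.47-fold, adjusted p = 0.00424). KCNA1 fell 4.30-fold, from 8.33 and 7.89 to 6.14 and 5.88, and stood at 7.29 in the 2-year testis. SCN9A, KCNT2 and KCNQ1 fell at least 5.88-fold, 5.01-fold and 3.76-fold and were not well above background at 2 and 4 months. KCNQ1 stood at 5.86 and 5.82 before that. The smaller decreases took in CLCN3, CLCN5 and SCN4B. Counts here rest on 2 samples a side: without the 4-month testis 3 members were called higher and 3 lower, and without the 2-month testis 7 and 5. With arrays scaled to their 75th percentile in place of quantile normalization, 10 were higher and 11 lower.

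Age in the brain was read over the 3 regions together, 12 samples at 2 and 4 months against 12 at 1 and 4 weeks, with the region in the fit, and here a call needed only an adjusted p under 0.05. 6 members rose and 6 fell, against 3.59% and 5.33% of all genes. SCN4B, a beta subunit that helps fast firing, rose from 7.43 through 8.90 to 9.99 at the younger ages to 9.09 through 10.10 to 11.32 at the older ones (2.21-fold, log2 difference 1.14 ± 0.26 SE, adjusted p = 0.00609). KCNC1 rose by 0.38 on the log2 scale, KCNAB3 by 0.44, KCNIP2, which binds Kv4 channels, by 0.43 and KCND1, a Kv4 pore, by 0.29. KCNE1L fell by 1.14, SCN9A by 1.1, HCN4 by 0.62, KCNT2, a sodium-activated channel, by 0.51, KCNS2 by 0.43 and SCN3B by 0.40. All 12 ranges overlapped between the ages. Within the 7 slides that held both ages, only 4 of the 12 kept their direction in every slide. The count went from 2 to 16 when all samples of 1 age and sex were left out in turn, with the fewest without the 4-month males, 3 without the 1-week females, 4 without the 1-week males and 5 without the 2-month females.

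By region, the cerebellum gave 1 member higher and 5 lower with age in 4 samples against 4, against 0.957% and 1.34% of all genes. HCN4 stood at 6.01 to 6.77 at 1 and 4 weeks and at 4.69 to 5.19 later, a decrease of 2.58-fold (adjusted p = 0.0149). KCNG1 fell at least 2.55-fold, SCN9A 2.45-fold, CACNA2D3 1.92-fold and KCNS2 at least 1.69-fold, and KCNAB3 rose 1.96-fold (adjusted p = 0.0299). Oligodendrocyte markers also stood lower at the older ages, at 9.91 to 10.59 against 10.76 to 11.07, while neuron markers were at 7.05 to 7.44 against 7.16 to 7.52, and their part was not tested. No cerebellum member was called without the 4-month male or without the 4-month female sample, 1 without the 4-week male or the 1-week male, 2 without the 2-month female and 3 without the 1-week female.

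In cortex, none rose and 1 fell, where 0.961% and 0.809% of all genes were called. This was KCNE1L, at 6.79 to 7.82 and then 5.81 to 6.20 (2.71-fold, adjusted p = 0.0195), and it missed the threshold without the 2-month male, 1-week female, 4-month male, 2-month female or 1-week male sample. KCNE1L stood at 7.14 in the 2-year cortex. In hypothalamus no member was called in either direction, nor any gene (0% and 0%), and no other setting called a member. An unadjusted p under 0.05 was reached there by 14 members, against 9.54% of all genes.

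In kidney, 7 members rose and 3 fell, against 3.72% and 4.74% of all genes. KCNT2 stood at 4.82 to 6.09 at 1 and 4 weeks and was not well above background later, at 2.78 to 3.32 (at least 4.89-fold, adjusted p = 0.00436). CACNA1G, the T-type pore, stood at 4.78 to 5.47 and then at 3.19 to 3.68 (3.30-fold, adjusted p = 0.00376). KCNE1L fell at least 2.23-fold. The increases were under 2-fold, among them KCNA7 1.64-fold, KCND1 1.55-fold, KCNA3 1.54-fold, KCNIP1 1.53-fold, CACNG3 1.5-fold and KCNH6 1.43-fold. The age groups did not overlap for any of these 10, nor for 25 of the 120 members in all. The share of all genes without overlap was not counted, so this is a description.

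KCNJ1, CLCN5, KCNJ15, KCNK5 and KCNQ1, named above as higher in kidney, were not among the 10 called with age. On the log2 scale KCNJ1 differed by 0.21 and CLCN5 by -0.34, which did not pass (adjusted p = 0.587 and 0.143). KCNJ15 differed by 0.54, KCNK5 by 0.55 and KCNQ1 by 0.34. KCNH6, which had its highest tissue mean in kidney, was among the 10. Collecting duct markers were higher at the older ages (8.23 to 9.41 against 7.70 to 8.39), distal tubule markers likewise (10.67 to 11.20 against 10.08 to 10.18), and the older arrays were brighter, with median intensities of 43 to 68 against 40 to 46. Of the distal tubule markers, CALB1 did not set kidney apart, with a mean of 9.76 against 10.74 in bone marrow. The part of the markers and of the intensity was not tested. The kidney count went from 10 to 2 without the 1-week female, 3 without the 4-month male, 4 without the 1-week male or the 2-month male, and 6 without the 2-month female or the 4-week female.

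In liver none rose and 1 fell, against 0.683% and 1.13% of all genes. It was KCNK7, at 5.51 to 6.00 and then 4.44 to 5.15 (1.90-fold, adjusted p = 0.0491), and the call was lost on leaving out any liver sample except the 2-month female, without which 2 members were called. In spleen none rose and 2 fell, against 1.55% and 1.56%. KCNK17 stood at 6.32 and 6.17 at 1 week and at 5.62 and 5.07 at 4 weeks, and then at 3.45 to 3.87 (4.48-fold, adjusted p = 0.00876). KCNJ15 went from 5.55 to 6.32 down to 4.90 to 5.29 (1.97-fold, adjusted p = 0.0362). Erythroid markers in spleen were at 8.49 to 9.38 and then 8.2 to 8.55, and their part was not tested. Leaving out the 4-week female spleen gave 5 calls and leaving out any other spleen sample gave 1. In bone marrow no member was called, where 0.637% of all genes rose and 0.097% fell. There 17 members reached an unadjusted p under 0.05, against 14.4% of all genes. With the scanner-processed signal 1 member was called, and with the slide as a random block over 56 samples 11 were.

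**Figure D5:**
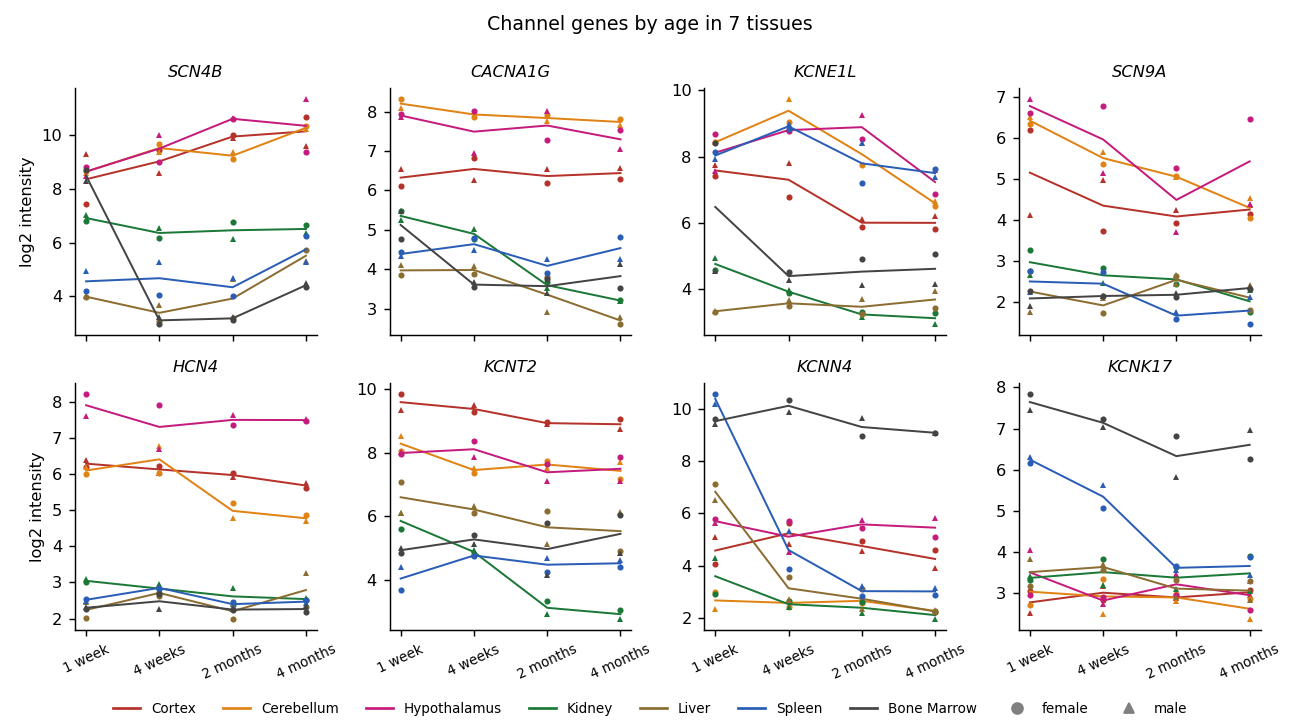
Log2 intensity by age of 8 channel genes in 7 tissues; circles are females, triangles males and lines the mean of both. SCN4B lies higher at 2 and 4 months than at 1 and 4 weeks on average over the 3 brain regions, KCNT2 is lower at those ages in kidney, and KCNN4 starts above 10 in the 1-week spleen and lies at 2.85 to 3.21 there at 2 and 4 months.

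KCNN4, taken up again here after its values were seen, had its steepest course within the younger ages. In spleen it stood at 10.56 and 10.19 at 1 week, at 3.87 and 5.33 at 4 weeks and at 2.85 to 3.21 later, and in liver at 7.12 and 6.53, then 3.57 and 2.71, then 2.22 to 3.12. With 1 and 4 weeks as 1 group, neither tissue was called (adjusted p = 0.115 in spleen and 0.174 in liver). SCN4B in bone marrow, also chosen after its values were seen, stood at 8.69 and 8.27 at 1 week and at 2.98 to 4.48 from 4 weeks on.

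Whether the age difference itself varied among the 7 tissues was tested with an F test of the interaction. 21 of the 120 members (17.5%) and 18.6% of all genes passed, so the members' share was near the background. HCN4 is an example, with a difference of -1.37 in cerebellum and between -0.38 and 0.02 in the other 6 tissues (adjusted p = 0.00724). KCNT2 had -2.34 in kidney and between -0.81 and 0.11 elsewhere (adjusted p = 0.000674).

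Some members known for a tissue did not show that pattern here. Of 29 genes listed as known for neurons, kidney or testis, 22 were measured under their symbol. CACNA1A, the P/Q-type pore of Purkinje cells, was at 6.56 to 7.22 in all 9 tissue means, and KCNQ3 at 3.00 or lower. Of the 28 members well above background on all 64 younger arrays, 6 varied less than 2-fold over the tissue means, among them KCNS1, CACNA1A, KCNE2, CACNG1 and CACNG3. In 4 of these 6 the probes lay over 4 log2 units apart, such as 2.46 and 11.39 for CACNA1A and 2.55 and 14.12 for KCNS1, so the gene's mean joined a dim and a bright probe. For 42 of the 120 members, some pair of probes correlated below 0.5 over the samples.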

How the data were processed

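Total RNA of each tissue was labelled with Cy3 and hybridised to one-color custom Agilent arrays. The deposited files hold scanner intensity per spot, which the authors extracted with Agilent Feature Extraction 11.5.1.1 per the submitters' processing notes, and a table of log2 values that the authors processed further, with a column median of 4.57 in every sample (its centring is not stated in the sources used here). That table served as an alternative.

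The median spot intensity was background-corrected with normexp (offset 0), quantile normalized over gene and negative control spots, and put on the log2 scale with limma 3.58.1 in R 4.3.3 (with data.table, version 1.17.8). Outlier-marked spots were left out, and spots were averaged to probes and probes to genes. The gene name is the array's own systematic name with a trailing number cut, and 14 genes not measured on every array were dropped, leaving 23722. The number of arrays limits the precision. The 8 arrays of the 2-year kidney were averaged into 1 sample. A gene was called below background in a group when the scanner marked no array of it as well above background, and its fold is then a lower bound ("at least"), the bright group's mean over the higher of the dim group's own signal and the lowest signal among probes well above background.

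Groups were compared with limma's moderated test and Benjamini-Hochberg adjustment over all genes. Tissue comparisons and testis by age needed an adjusted p under 0.05 and a 2-fold difference, and the other age comparisons only the adjusted p. Named were, per tissue comparison, the 6 members farthest apart in each direction among those called without overlap, the 4 largest age differences in each direction (6 in testis), members known for neurons, kidney or testis, and members leading liver, spleen, bone marrow or ovary by 2-fold. Others were named after their values were seen. The members and lists were chosen with earlier results of these data known. The alternatives were the scanner-processed signal, an offset of 50, 75th percentile scaling, a filter on dim genes, the probe median, a variance trend, other fold minimums, replicate and slide blocks, inclusion of the 2-year samples, leaving out samples, and, added after seeing the data, specific probes only and the authors' value table. The scripts were tested on simulated data. Some genes are counted in totals and family medians but not reported here by name.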

Additional observations from a re-analysis of the deposited data

Results flagged for a closer look

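6 of 158 gene and group pairs held a sample far from the rest of its group, where chance marks about 1 in 20 groups. KCNC1 in cortex was 5.80 in the 1-week female against 6.65 to 7.12 in the other samples. CACNG2 was low in the 1-week male in cerebellum (8.66 against 9.22 to 9.52) and in hypothalamus (8.23 against 8.84 to 9.32), and KCNE1L in hypothalamus was 7.56 in the 1-week male against 8.68 to 8.84 in the other samples at 1 and 4 weeks. CACNB3 in liver at 2 and 4 months was 4.86 in the 4-month male against 5.29 to 5.31, and CLCN3 in spleen at those ages was 9.02 in the 2-month female against 8.79 to 8.83.

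For 14 of the named genes the age difference varied among the 7 tissues by limma's F test of the interaction, where 17.5% of the members and 18.6% of all genes passed. 8 of them had been named for an age call within a tissue, a choice that favours such a difference, so the count is a description. The values below are log2 differences of the older minus the younger ages. KCNN4 had -4.46 in spleen and -2.48 in liver and between -0.81 and 0.11 elsewhere (adjusted p = 0.0132). KCNK17 had -2.16 in spleen (adjusted p = 0.000111), KCNJ15 -0.98 in spleen and 0.54 in kidney (adjusted p = 0.0459), and CLCN5 -1.39 in liver (adjusted p = 0.00908). KCNT2 had -2.34 (adjusted p = 0.000674) and CACNA1G -1.72 (adjusted p = 0.00873) in kidney. KCNK7 had -0.93 in liver, -0.87 in kidney and 0.33 in cerebellum (adjusted p = 0.00171). HCN4 had -1.37 (adjusted p = 0.00724) and KCNAB3 0.97 (adjusted p = 0.0303) in cerebellum.

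In bone marrow KCNK1 had -1.44 (adjusted p = 0.0462). SCN2B ran from -1.06 in kidney to 0.83 in cerebellum (adjusted p = 0.00252), KCNA3 from -0.01 in hypothalamus and liver to 0.73 in spleen (adjusted p = 0.0146), KCNJ16 from -0.45 in liver to 0.39 in kidney (adjusted p = 0.0396) and CACNB3 from -0.34 in liver to 0.37 in cerebellum (adjusted p = 0.0336).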

How the results depend on the processing

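The numbers of channel genes called are given in the order cortex against cerebellum, hypothalamus against cortex, hypothalamus against cerebellum, brain against non-brain, kidney against the 3 organs, kidney against brain, testis against 7 tissues, and testis by age. They were 31, 20, 22, 59, 23, 60, 43 and 26. An offset of 50 gave 11, 9, 7, 32, 10, 34, 18 and 5, and a 4-fold minimum 12, 6, 5, 34, 11, 38, 17 and 9. Without a fold minimum the counts were 69, 57, 67, 101, 62 and, for testis against 7 tissues, 83. With age and sex as a replicate block the first 7 counts were 31, 20, 22, 59, 23, 60 and 41. Samples of the same age and sex did not deviate together throughout (r between tissues from -0.27 to 0.47), although the median r was positive in each of the 8 sets (0.11 to 0.21), and the age test over the 3 brain regions, with these sets as a random block, gave 12 calls, against 13 without that block. Leaving out a testis sample gave 41 to 44 and, by age, 6 to 31. By age, cortex gave 1, and 3 with the scanner-processed signal, an offset of 50 or the value table, 2 with a filter on dim genes, 4 with a variance trend and 0 with the slide block. For age within a tissue, the slide block was fitted over the 56 samples of the 7 tissues together. The pooled spread and the block therefore changed at once. Cerebellum gave 6, and 3 with the value table or a 2-fold minimum. Kidney gave 10, 3 with a 2-fold minimum and 16 with the slide block. Liver gave 1, and 0 with the scanner-processed signal, an offset of 50, 75th percentile scaling, the value table, a 2-fold minimum or the sex block, 2 with specific probes, 3 with the 2-year samples and 4 with the slide block. Spleen gave 2, and 1 with an offset of 50, the 2-year samples, a 2-fold minimum or the sex block, 4 with a filter on dim genes and 11 with the slide block. Bone marrow gave 0, and 1 with the scanner-processed signal, an offset of 50, the value table or a variance trend and 11 with the slide block. The 3 brain regions gave 12, and 3 with a 2-fold minimum. Leaving out samples gave 0 to 2 in cortex, 0 to 7 in cerebellum, 2 to 15 in kidney, 0 to 2 in liver, 1 to 5 in spleen, 0 in hypothalamus and bone marrow and 2 to 16 over the brain regions. The age interaction gave 21, and 13 with 75th percentile scaling. That scaling moved the median of all genes from -0.114 to -0.277 for brain against non-brain and from 0.032 to 0.174 for spleen by age. Among named genes, 1320 values kept direction and call, 199 fell short of the threshold, and 1 turned, KCNJ16 in hypothalamus against cortex (-0.12 with specific probes). The causes were not tested. Signal over background limits 25 of the 120 members.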

Other observations

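A single array of the renal pelvis of the 2-year male was set beside the 8 arrays of its kidney, with no replicate and no test. 5 members were at least 4-fold higher in the pelvis and 1 lower, where 0.953% and 1.38% of all genes were. SCN4B stood at 10.23 against a mean of 7.06 in the kidney arrays, KCNN4 at 5.01 against 2.47, KCNK7 at 7.41 against 5.18, CACNG7 at 7.46 against 5.37 and KCNK13 at 7.40 against 5.33. KCNJ15 was lower, at 6.87 against 9.53.

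In the 2-year samples, members lay over 1 log2 unit outside the range of the younger samples mainly in bone marrow, with 4 higher and 6 lower (6.21% and 5.21% of all genes). In spleen 2 were higher (0.641% of all genes), in liver 1 (SCN9A) was higher (0.341%), in cerebellum 1 was lower (0.122%), and in the other 4 tissues there were none. Age, site, feed and slide cannot be told apart there.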
